A study of Bos taurus with 6 samples.

Results

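The Hippo pathway genes of bovine late morulae were described over 3 groups of embryos that had been injected with small interfering RNA (siRNA): against NOTCH1, against RBPJ, or a nonspecific siRNA that served as the control. The 32 genes were listed by symbol, and all 32 were found among the 15314 named genes of the deposited table. All embryos were late morulae collected 6 days after in vitro fertilization, so the controls had also been fertilized in vitro, injected and grown to the same stage. Each group had 2 libraries of polyadenylated RNA, and each library was made from a pool of 15 whole embryos, so inner and outer cells were measured together. NOTCH1 encodes a cell surface receptor whose cleaved inner part enters the nucleus, and RBPJ is the transcription factor it joins on DNA. The comparisons ask whether transcripts of the Hippo pathway differ when either component is reduced.

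The Hippo pathway is a kinase cascade that controls 2 transcriptional coactivators, YAP1 and WWTR1 (also called TAZ). When the kinases STK3 and STK4 with their adaptor SAV1 activate LATS1 and LATS2 with their MOB1 adaptors, the LATS kinases phosphorylate the coactivators and keep them out of the nucleus. Unphosphorylated coactivators enter the nucleus and bind the TEAD transcription factors. In mouse embryos this occurs in polarized outer cells, where TEAD4 with YAP1 drives trophectoderm genes such as CDX2, while in inner cells AMOT and NF2 at the junctions activate the LATS kinases. Much of this control acts on proteins and their location, which transcript levels do not measure.

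Each value is a read count that the authors scaled, called a scaled count here, with totals of 10365695 to 10815554 per library and an approximate depth of 9730000 to 13600000 reads. RBPJ was 121 and 94.5 in the RBPJ knockdown, against 447 and 391 in the control, a log2 fold change of -1.96 that passed (limma, adjusted p = 0.00143). NOTCH1 was 48.0 and 49.5 in the NOTCH1 knockdown, against 69.65 and 139.8 in the control, which did not pass (limma, adjusted p = 0.634), and 50.0 and 125 in the RBPJ knockdown. The embryo markers present in the table, 8 of 9 listed, ran from 125 for NANOG in its lowest library upward, with POU5F1 between 10910 and 12940 and CDH1 between 10150 and 12330. Markers of cumulus and granulosa cells, with 8 of 10 in the table, summed to 306 to 417 in the NOTCH1 knockdown, 387 to 396 in the RBPJ knockdown and 338 to 396 in the control. Fibroblast and stromal markers, with 6 of 6 in the table, summed to 1334 to 1382 in the NOTCH1 knockdown, 1449 to 1538 in the RBPJ knockdown and 1395 to 1509 in the control. Blood and immune markers, also 6 of 6, summed to 1145 to 1491 in the NOTCH1 knockdown, 1166 to 1480 in the RBPJ knockdown and 1099 to 1418 in the control. Most of that sum was HBA, while PTPRC reached at most 11.3 and CD3E was 0 in 3 libraries. The fibroblast sums of the NOTCH1 knockdown lay below both controls, and every other sum of these 3 lists overlapped the control. Most of each fibroblast sum was PDGFRA, at 905 and 830 in the NOTCH1 knockdown against 918 and 945 in the control.

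All 32 genes passed the filter of a mean of at least 10 scaled counts, and none passed the test in any of the 3 comparisons (limma, Benjamini-Hochberg adjusted p below 0.05 over 12070 genes). Over all genes tested the share that passed was 0% for the NOTCH1 knockdown, 0.00829% for the RBPJ knockdown and 0.00829% for the 2 knockdowns against each other, the single gene in both cases being RBPJ. The account that follows therefore gives levels and intervals, and no gene of the pathway is called changed. Standard errors of the log2 fold changes ran from 0.10 for NF2 to 0.56 for VGLL1, with a median of 0.17 over the 32 genes and 0.18 over all genes tested. Levels are compared within a gene and not between genes, because transcript lengths were not used here.

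YAP1, the coactivator, was higher in all 4 knockdown libraries than in both controls. It measured 609.6 and 608.7 in the NOTCH1 knockdown, 611 and 527 in the RBPJ knockdown, and 471.5 and 455 in the control. In the NOTCH1 knockdown the mean was 1.31-fold that of the control and the log2 fold change was 0.39, with a 95% interval of 0.10 to 0.69 (limma, unadjusted p = 0.0121, adjusted p = 0.527). The RBPJ knockdown mean was 1.23-fold that of the control and the log2 fold change was 0.29, with an interval of 0.0011 to 0.58 (limma, adjusted p = 0.983). YAP1 had the smallest p of the 32 genes in the NOTCH1 knockdown, where it ranked 277 among all genes tested. Of all genes, 18.6% lay above both controls in both NOTCH1 knockdown libraries, and 15.3% in both RBPJ knockdown libraries. The share of all genes with all 4 knockdown libraries on one side of the shared controls was not counted. In pools of whole embryos, a different share of cells of a type and a different amount of RNA per cell cannot be told apart.

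WWTR1, the paralog of YAP1, did not share this order. It measured 1178 and 1402 in the NOTCH1 knockdown, 1506 and 1469 in the RBPJ knockdown, and 1236 and 1437 in the control. Libraries of the NOTCH1 knockdown and the control overlapped, while both RBPJ knockdown libraries lay above the other 4. The log2 fold change against the control was -0.05 in the NOTCH1 knockdown, with an interval of -0.32 to 0.22, and 0.16 in the RBPJ knockdown, with an interval of -0.11 to 0.43. The ratio of YAP1 to WWTR1 within a library, in which any scaling of the library cancels, was 0.518 and 0.434 in the NOTCH1 knockdown, 0.406 and 0.359 in the RBPJ knockdown, and 0.381 and 0.317 in the control. Both ratios of the NOTCH1 knockdown lay above the other 4, and those of the RBPJ knockdown overlapped the control.

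All 4 TEAD genes, which encode the DNA-binding partners of YAP1, had both NOTCH1 knockdown libraries above both control libraries, as did 18.6% of all genes tested. TEAD1 was only just so, since 196.6 in the lower knockdown library stood against 195.5 in the higher control, and its libraries overlapped under median-of-ratios scaling and under quantile normalization. The 4 log2 fold changes in the NOTCH1 knockdown ran from 0.19 for TEAD4 to 0.50 for TEAD2, with a median of 0.23, and were positive under both other scalings too. TEAD4 had 0.08 without replicate 1 of the control, and TEAD1 had 0.06 without its replicate 2. None passed (limma, smallest adjusted p = 0.626, for TEAD2). Their median was 0.22 in the RBPJ knockdown, where of the 4 genes TEAD1 alone had both libraries above the control.

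TEAD4, the family member needed for trophectoderm formation in mouse embryos, measured 1647 and 1588 in the NOTCH1 knockdown, 1511 and 1615 in the RBPJ knockdown, and 1307 and 1535 in the control. The controls were further apart than either knockdown pair. The log2 fold change was 0.19 with an interval of -0.06 to 0.44 in the NOTCH1 knockdown and 0.14 with an interval of -0.11 to 0.39 in the RBPJ knockdown. TEAD3 measured 1988 and 1899 in the NOTCH1 knockdown, 1684 and 1575 in the RBPJ knockdown, and 1589 and 1661 in the control. It was thus higher in the NOTCH1 knockdown than in the other 4 libraries, with a log2 fold change of 0.26 against the control (limma, adjusted p = 0.631) and 0.25 against the RBPJ knockdown (limma, adjusted p = 0.999). Between the RBPJ knockdown and the control TEAD3 differed by 0.0034 on the log2 scale, with an interval of -0.22 to 0.23.

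TEAD2 had the largest fitted change of the 32 genes in the NOTCH1 knockdown. It measured 288 and 231 in the NOTCH1 knockdown, 256 and 197 in the RBPJ knockdown, and 199.9 and 164.5 in the control. The lower NOTCH1 knockdown library stood above both controls, and the lower RBPJ knockdown library did not. Its log2 fold change was 0.50 (interval 0.06 to 0.95) in the NOTCH1 knockdown and 0.31 (interval -0.14 to 0.75) in the RBPJ knockdown. TEAD1 measured 196.6 and 212 in the NOTCH1 knockdown, 265 and 200.3 in the RBPJ knockdown, and 195.5 and 163 in the control. Its log2 fold change was 0.20 in the NOTCH1 knockdown and 0.37 in the RBPJ knockdown.

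**Figure D1:**
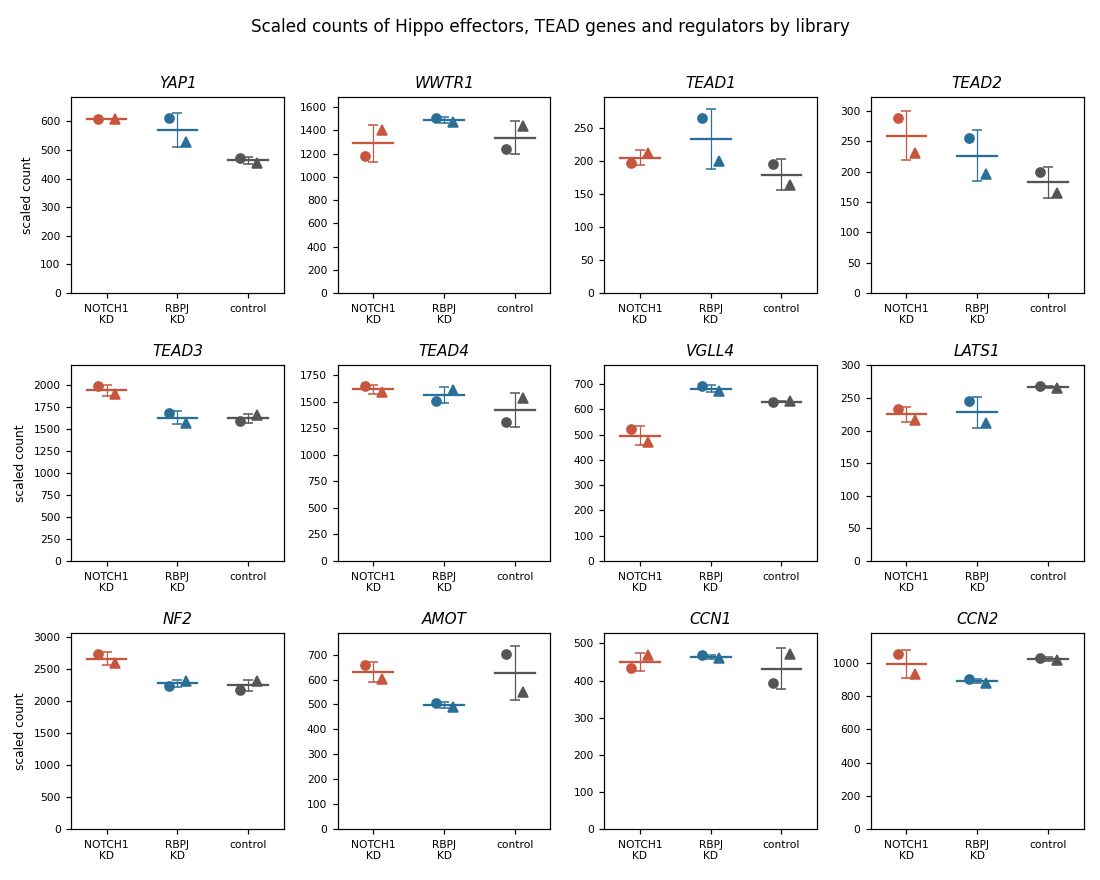
Scaled counts (vertical axes, from 0) of 12 genes in each of the 6 libraries, with circles for replicate 1, triangles for replicate 2, horizontal lines for the group mean and bars for 1 SD (2 libraries per group). YAP1 was above both controls in all 4 knockdown libraries, and VGLL4 was below the control in the NOTCH1 knockdown and above it in the RBPJ knockdown.

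VGLL4, a cofactor that competes with YAP1 for TEAD proteins, stood on opposite sides of the control in the 2 knockdowns. It and the other members singled out from here on, apart from VGLL1, were chosen after their values were seen. VGLL4 measured 522.5 and 469 in the NOTCH1 knockdown, 691 and 672 in the RBPJ knockdown, and 629 and 631 in the control. No libraries of the 3 groups overlapped. The log2 fold change was -0.35 in the NOTCH1 knockdown, with an interval of -0.62 to -0.07 (limma, unadjusted p = 0.0184, adjusted p = 0.569). The RBPJ knockdown value was 0.11, with an interval of -0.17 to 0.39 (limma, adjusted p = 0.989). The direct difference between the knockdowns was -0.46, with an interval of -0.74 to -0.18 (limma, unadjusted p = 0.00355, adjusted p = 0.999), rank 41 among all genes tested. Of all genes, 17.2% lay below both controls in the NOTCH1 knockdown and 15.3% lay above both in the RBPJ knockdown. The share of all genes with both was not counted.

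Ratios to VGLL4 within a library separated the NOTCH1 knockdown from the other libraries. VGLL4 by itself already separated these libraries, so division by it favours this order, and the ratios are no separate result. Libraries of the 2 knockdowns overlapped for YAP1 and for TEAD4 by themselves. YAP1 over VGLL4 was 1.17 and 1.30 in the NOTCH1 knockdown, 0.885 and 0.785 in the RBPJ knockdown, and 0.749 and 0.721 in the control. TEAD4 over VGLL4 was 3.15 and 3.38 in the NOTCH1 knockdown, 2.19 and 2.40 in the RBPJ knockdown, and 2.08 and 2.43 in the control. No p is given for the ratios, which were chosen after the values of their genes were seen. VGLL1, another TEAD cofactor, was near the filter, at 15.3 and 10.8 in the NOTCH1 knockdown, 6.93 and 8.23 in the RBPJ knockdown, and 9.54 and 10.8 in the control. Its mean was 10.3 over all libraries, with 13.0 in the NOTCH1 knockdown, 7.58 in the RBPJ knockdown and 10.2 in the control. VGLL1 thus passed the filter of 10 only through the NOTCH1 knockdown, the group where it was highest, and no difference is read from it. Its intervals were wide, from -0.52 to 1.91 for the difference of 0.70 between the 2 knockdowns.

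Among the kinases, LATS1 was lower in all 4 knockdown libraries than in both controls, and LATS2 was not. Of all genes tested, 17.2% lay below both controls in the NOTCH1 knockdown and 16.8% in the RBPJ knockdown. The controls were shared, and the share of all genes below them in all 4 knockdown libraries was not counted. The order of LATS1 is therefore not read as unusual. LATS1, which phosphorylates the coactivators, measured 233 and 216 in the NOTCH1 knockdown, 245 and 211 in the RBPJ knockdown, and 268 and 265 in the control. Its log2 fold change was -0.25 in the NOTCH1 knockdown (interval -0.61 to 0.12) and -0.23 in the RBPJ knockdown (interval -0.60 to 0.14), and neither passed (limma, adjusted p = 0.801 in the NOTCH1 knockdown and 0.983 in the RBPJ knockdown). LATS2 measured 315 and 189.5 in the NOTCH1 knockdown, 266 and 259.6 in the RBPJ knockdown, and 219 and 269.5 in the control, so that the NOTCH1 knockdown libraries lay outside the range of all others on both sides.

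The other kinases varied about the control. STK3, which activates the LATS kinases, measured 184 and 181 in the NOTCH1 knockdown, 212 and 134 in the RBPJ knockdown, and 211 and 207.5 in the control. TAOK1, a kinase upstream of STK3 and STK4, measured 199 and 264 in the NOTCH1 knockdown, 263 and 297.5 in the RBPJ knockdown, and 286 and 278 in the control. Both genes were thus below the control in the NOTCH1 knockdown and overlapped it in the RBPJ knockdown. STK4, MAP4K4, TAOK2 and TAOK3 overlapped the control in both knockdowns. Over the 8 kinases the median log2 fold change was 0.02 in the NOTCH1 knockdown and -0.01 in the RBPJ knockdown, with a range of -0.30 to 0.18 in the NOTCH1 knockdown and -0.31 to 0.13 in the RBPJ knockdown. The 3 adaptors SAV1, MOB1A and MOB1B overlapped the control in both knockdowns. Among these 3 genes MOB1B differed most within a group, with 278 and 98.6 in the 2 RBPJ knockdown libraries, against 241.5 and 183 in the control.

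The 10 upstream regulators all had positive log2 fold changes in the NOTCH1 knockdown, with a median of 0.26 and a range of 0.02 to 0.46. Under quantile normalization AMOT was at -0.0020, and with 1 library left out AMOT, AMOTL1, AMOTL2 or FRMD6 became negative, the lowest being FRMD6 at -0.39 without replicate 2 of the control. Both libraries lay above both controls for 6 of the 10, and for 4 under quantile normalization, beside 18.6% of all genes tested. None passed (limma, smallest adjusted p = 0.631, for NF2). Against the control, 7 were positive and 3 negative in the RBPJ knockdown, with a median of 0.04. NF2, a FERM-domain protein that recruits LATS kinases to the membrane, measured 2733 and 2591 in the NOTCH1 knockdown, 2241 and 2321 in the RBPJ knockdown, and 2179 and 2309 in the control. It was higher in the NOTCH1 knockdown than in the other 4 libraries, with a log2 fold change against the control of 0.25 (interval 0.03 to 0.47). The 95% interval of its difference between the RBPJ knockdown and the control ran from -0.19 to 0.24.

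AMOT, a junctional scaffold that binds both YAP1 and the LATS kinases, had the smallest p of the 32 genes in the RBPJ knockdown. It measured 659 and 602 in the NOTCH1 knockdown, 506 and 488 in the RBPJ knockdown, and 702 and 549 in the control. The RBPJ knockdown libraries lay below the other 4. The log2 fold change was -0.32 in the RBPJ knockdown (interval -0.64 to -0.0022; limma, unadjusted p = 0.0487, adjusted p = 0.983) and 0.02 in the NOTCH1 knockdown (interval -0.30 to 0.34). The control libraries were far apart, and without replicate 1 of the control the value in the RBPJ knockdown was -0.14, against -0.50 without replicate 2 of the control. Its relatives AMOTL1 and AMOTL2 had log2 fold changes of 0.22 and 0.01 in the RBPJ knockdown, with libraries that overlapped the control.

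LIMD1, a LIM-domain protein that restrains the LATS kinases, measured 98.1 and 89.4 in the NOTCH1 knockdown, 118 and 72.9 in the RBPJ knockdown, and 71.8 and 64.3 in the control. All 4 knockdown libraries lay above both controls, although those of the RBPJ knockdown overlapped the control under quantile normalization. Of all genes, 18.6% lay above both controls in the NOTCH1 knockdown and 15.3% in the RBPJ knockdown, and the share with both was not counted. AJUBA, which also binds LATS kinases, measured 398 and 365 in the NOTCH1 knockdown, 335 and 289.9 in the RBPJ knockdown, and 354 and 276.5 in the control. PTPN14, a phosphatase that holds YAP1 in the cytoplasm, measured 479 and 373 in the NOTCH1 knockdown, 465 and 258 in the RBPJ knockdown, and 338 and 326 in the control. Both were above the control in the NOTCH1 knockdown. The RBPJ knockdown pair of PTPN14 lay on either side of the control. WWC1 and WWC2, scaffolds that bind LATS kinases, had log2 fold changes of 0.29 and 0.32 in the NOTCH1 knockdown and 0.11 and -0.03 in the RBPJ knockdown. WWC1 measured 2979 and 2220 in the NOTCH1 knockdown, 2532 and 2025 in the RBPJ knockdown, and 2201 and 2001 in the control. WWC2 measured 1504 and 1208 in the NOTCH1 knockdown, 1217 and 915 in the RBPJ knockdown, and 1205 and 967 in the control. Without replicate 1 of the NOTCH1 knockdown their log2 fold changes there were 0.08 for WWC1 and 0.16 for WWC2. Their separation from the control in the NOTCH1 knockdown was lost under quantile normalization. FRMD6, a FERM-domain relative of NF2, measured 63.6 and 71.2 in the NOTCH1 knockdown, 76.0 and 72.7 in the RBPJ knockdown, and 88.6 and 39.2 in the control, which lay on either side of both knockdowns.

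The transcripts that YAP1 and TEAD proteins are best known to induce did not share its order. CCN1, a secreted matrix protein, measured 434 and 468.5 in the NOTCH1 knockdown, 468 and 460.0 in the RBPJ knockdown, and 394 and 471 in the control. Its log2 fold change was 0.07 (interval -0.25 to 0.38) in the NOTCH1 knockdown and 0.11 (interval -0.21 to 0.42) in the RBPJ knockdown. CCN2, its relative, measured 1053 and 934 in the NOTCH1 knockdown, 902 and 883 in the RBPJ knockdown, and 1031 and 1016 in the control. Both RBPJ knockdown libraries lay below the other 4, with a log2 fold change of -0.20 against the control (interval -0.45 to 0.06; limma, adjusted p = 0.983). ANKRD1 was low and spread widely, with 14.3 and 46.3 in the NOTCH1 knockdown, 22.3 and 30.8 in the RBPJ knockdown, and 19.0 and 37.1 in the control.

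**Figure D2:**
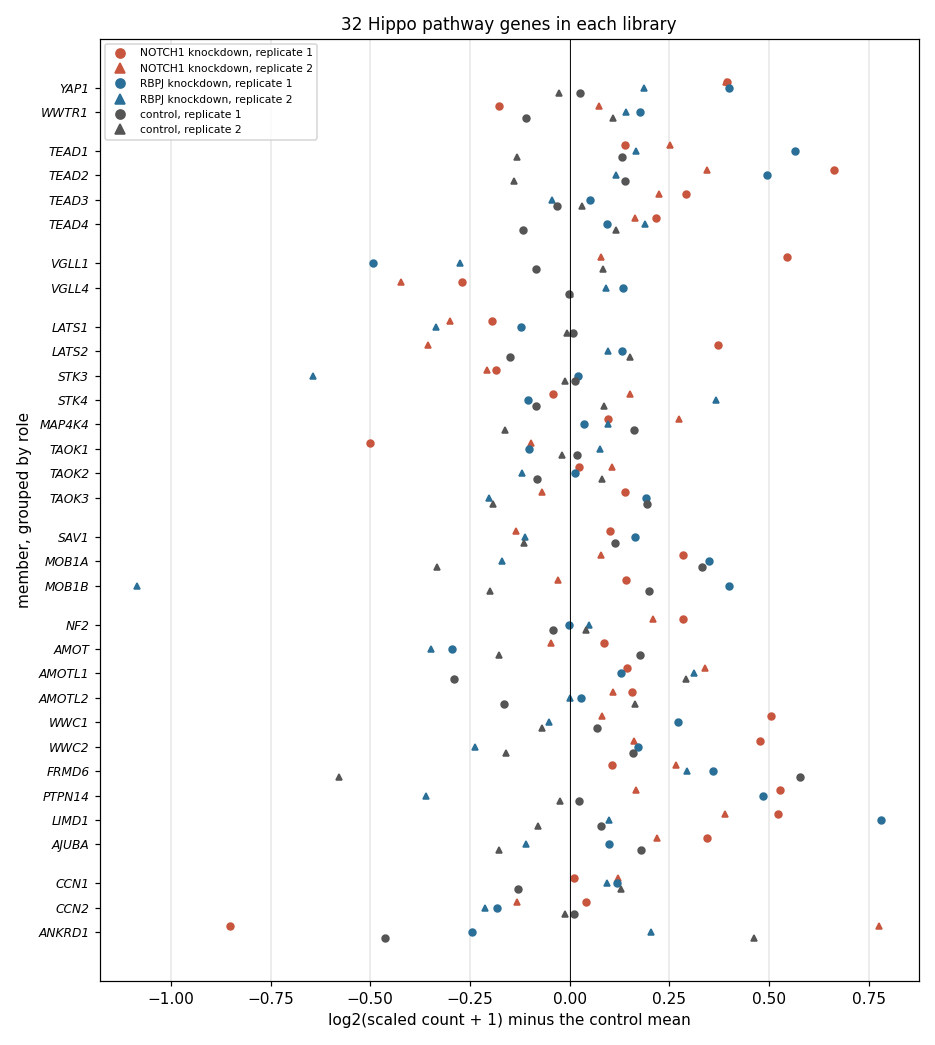
Difference of log2(scaled count + 1) from the control mean (horizontal axis) for the 32 genes, grouped by role, with 1 symbol per library and colours for the groups. The libraries of all 3 groups mostly lie within 0.5 of the control mean, and MOB1B in replicate 2 of the RBPJ knockdown and ANKRD1 in the NOTCH1 knockdown lie furthest from it.

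Counted over the list, 24 of the 32 genes had a positive log2 fold change in the NOTCH1 knockdown and 8 a negative one, with a median of 0.16, against 0.0059 over all genes tested. Both knockdown libraries lay above both controls for 11 members (34.4%), where 18.6% of all genes tested did so, and below both for 4 members (12.5%), where 17.2% did so. At an unadjusted p below 0.05 there were 5 members (15.6%), namely YAP1, VGLL4, TEAD2, TEAD3 and NF2, beside 7.29% of all genes. Without replicate 1 of the NOTCH1 knockdown 1 member was below that p, beside 3.59% of all genes. There were 3 members under quantile normalization, beside 6.88% of all genes, and 2 without the variance trend, beside 6.73%. Without either control library the count of members was higher, and so was the share of all genes. The median over members ran from 0.12 to 0.20 when each library was left out in turn. No test of the list against other genes was made.

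The list was closer to the background in the RBPJ knockdown. Of the 32 genes 20 were positive and 12 negative, with a median of 0.04, against -0.0018 over all genes tested. The median was 0.12 without replicate 2 of the RBPJ knockdown and 0.03 without replicate 1. Both libraries lay above both controls for 5 members (15.6%), where 15.3% of all genes did so, and below for 4 members (12.5%), where 16.8% did so. At an unadjusted p below 0.05 there were 2 members (6.25%), AMOT and YAP1, beside 4.34% of all genes tested. That count ran from 0 to 4 when each library was left out, being 0 without either library of the NOTCH1 knockdown, 1 without replicate 1 of the control and 4 without replicate 2 of the RBPJ knockdown. The share of all genes was 3.55% or 3.57%, 4.63% and 3.36% in those fits. Without the variance trend the count of members was 0, beside 4.43% of all genes, and with the compared groups alone it was 0, beside 3.55%. Under median-of-ratios scaling it was 1, beside 4.37%, and under quantile normalization it stayed at 2, beside 4.28%. The comparisons of the NOTCH1 and RBPJ knockdowns with the control used the same 2 control libraries.

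Set directly against each other, the NOTCH1 and RBPJ knockdowns had 4 members (12.5%) at an unadjusted p below 0.05, namely VGLL4, TEAD3, AMOT and NF2, beside 3.64% of all genes tested. VGLL4 was lower in the NOTCH1 knockdown, and the other three were higher. Both NOTCH1 knockdown libraries lay above both RBPJ knockdown libraries for 8 members (25%), where 17.5% of all genes did so, and below for 3 members (9.38%), where 15.5% did so. The median log2 difference over members was 0.10, against 0.01 over all genes. It was 0.0023 without replicate 2 of the RBPJ knockdown, 0.05 without replicate 1 of the NOTCH1 knockdown and 0.18 without replicate 1 of the RBPJ knockdown. The count of 4 members was 1 without replicate 2 of the RBPJ knockdown, beside 2.39% of all genes, and 1 without replicate 1 of the NOTCH1 knockdown, beside 1.89%. It was 2 under quantile normalization, beside 3.57% of all genes, and 2 without the variance trend, beside 4.46%.

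**Figure D3:**
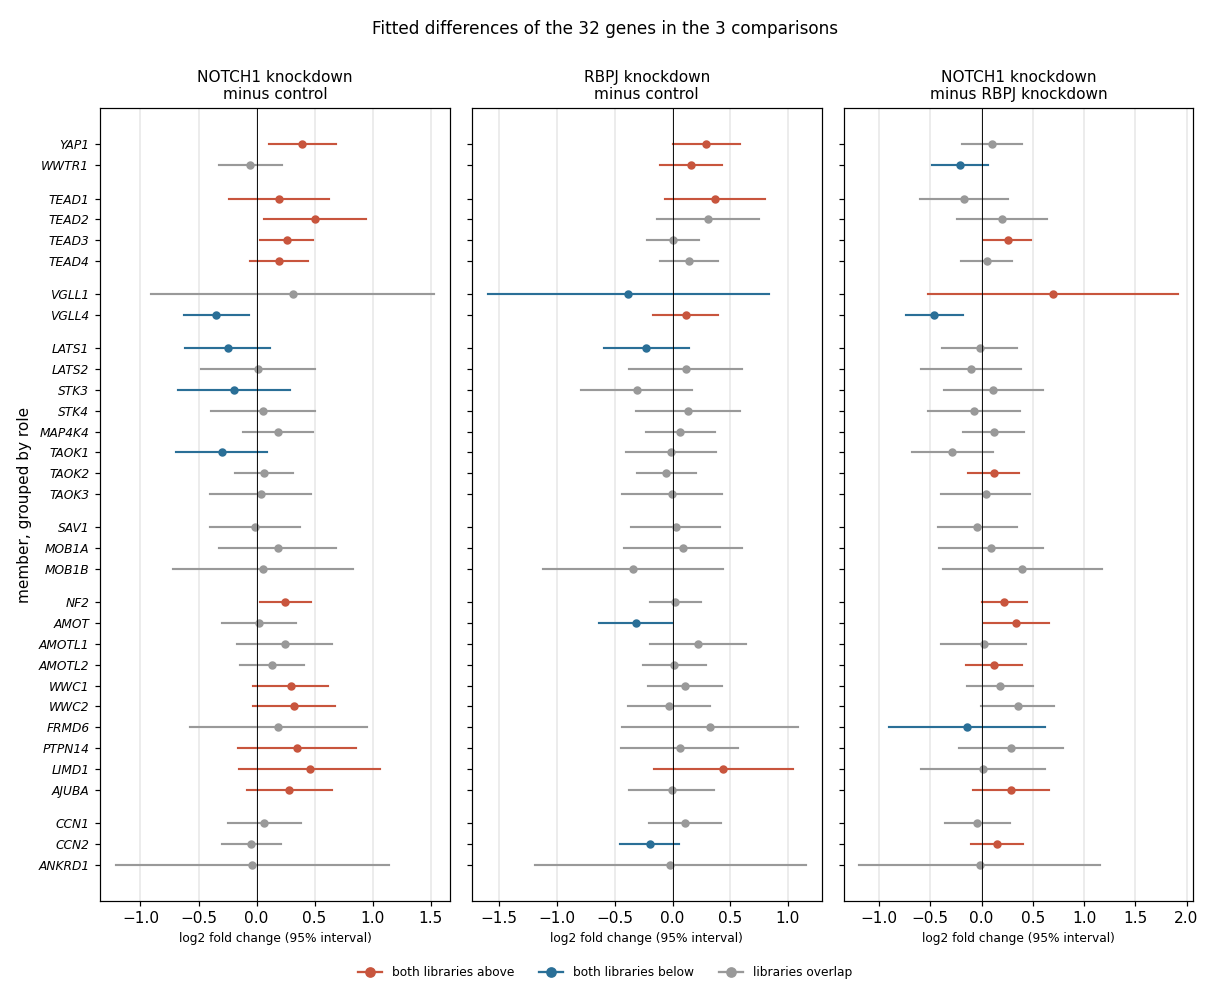
Fitted log2 fold changes (points) with 95% intervals (lines) of the 32 genes for the NOTCH1 knockdown minus the control, the RBPJ knockdown minus the control and the NOTCH1 knockdown minus the RBPJ knockdown. Red marks genes with both libraries of the first group above both of the second, blue those with both below and grey those that overlap; no gene passed after adjustment over all genes tested.

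The 2 libraries of a group differed in a way that was shared between groups for many of these genes. Replicate 1 lay above replicate 2 in all 3 groups for 15 of the 32 genes (46.9%), where 19.5% of all genes tested did so. The reverse held for 3 genes (9.38%), STK4, AMOTL1 and ANKRD1, where 18.2% of all genes did so. The 15 included all 3 adaptors and 6 of the 10 upstream regulators (AMOT, WWC1, WWC2, PTPN14, LIMD1 and AJUBA), with YAP1, TEAD2, LATS1, STK3, TAOK3 and CCN2. WWC2 was 1.25-fold higher in replicate 1 than in replicate 2 of the NOTCH1 knockdown, 1.33-fold in the RBPJ knockdown and 1.25-fold in the control. MOB1A was 1.15-fold higher in replicate 1 of the NOTCH1 knockdown, 1.44-fold in the RBPJ knockdown and 1.59-fold in the control. The keratins KRT8 and KRT18 of early trophectoderm were also higher in replicate 1 of every group, as were GATA3 and 19.5% of all genes tested. The other lineage genes tested did not share this order. TFAP2C was higher in replicate 2 of every group, and CDX2, NANOG and POU5F1 differed in direction between groups. KRT8 measured 15900 and 12500 in the NOTCH1 knockdown, 16110 and 7578 in the RBPJ knockdown, and 12000 and 10630 in the control. The labels give no batch, and what the shared number stands for was not tested.

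**Figure D4:**
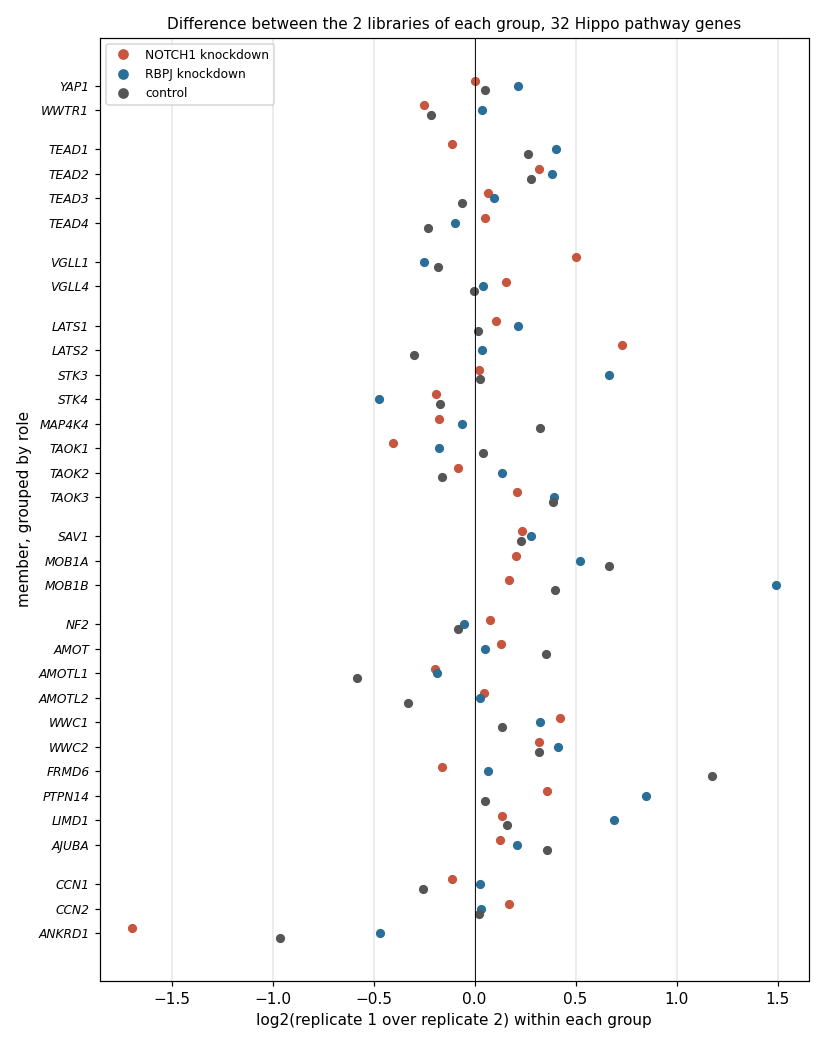
Log2 ratio of replicate 1 over replicate 2 (horizontal axis) within each group for the 32 genes, with 1 point per group. For 15 genes, among them WWC2, MOB1A and SAV1, all 3 points lie to the right of 0.

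Genes around the listed members gave no call either. Of 43 tested genes from a list of 47 further Hippo genes and members of the STRIPAK phosphatase complex that opposes the cascade, none passed in any comparison, and their medians were 0.0025 in the NOTCH1 knockdown and 0.0017 in the RBPJ knockdown. STK38, a kinase related to LATS1, measured 1261 and 1562 in the NOTCH1 knockdown, against 1841 and 1745 in the control (log2 fold change -0.35). MAP4K5, a kinase related to MAP4K4, measured 131 and 146 in the NOTCH1 knockdown, against 218 and 178 in the control (log2 fold change -0.50). FAT1, an atypical cadherin, measured 2678 and 2480 in the RBPJ knockdown, against 2428 and 1848 in the control. Its log2 fold change there was 0.28, and 0.09 without replicate 2 of the control. PPP2R1A, a scaffold subunit of the phosphatase, had a log2 fold change of 0.18 in the RBPJ knockdown, and 0.05 without replicate 1 of the control. Between the knockdowns the smallest p values were those of TP53BP2 and the kinase CSNK1E, with log2 differences of -0.20 for TP53BP2 and -0.275 for CSNK1E.

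Of 16 further YAP1 and TEAD targets taken from a signature of human cancers, 12 were tested, and none passed. Their median was -0.06 in the NOTCH1 knockdown, with 6 positive and 6 negative, and -0.07 in the RBPJ knockdown, with 5 positive and 7 negative. CCDC80, a secreted protein, measured 0 and 1.21 in the NOTCH1 knockdown, against 62.0 and 0.986 in the control, so its fitted difference rests on 1 control library. F3, which encodes tissue factor, measured 23.5 and 35.5 in the NOTCH1 knockdown, against 40.1 and 51.2 in the control. FOXF2, a transcription factor, measured 38.8 and 32.3 in the NOTCH1 knockdown, 31.5 and 6.16 in the RBPJ knockdown, and 53.9 and 30.5 in the control. IGFBP3, a binding protein for insulin-like growth factors, measured 308 and 472 in the RBPJ knockdown, against 246 and 316 in the control. Its log2 fold change there was 0.45, and 0.14 without replicate 2 of the RBPJ knockdown. Of these targets FOXF2 had the smallest p between the knockdowns, with a log2 difference of 1.26 that was 0.16 without replicate 2 of the RBPJ knockdown.

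Lineage genes that are read out with this pathway were counted too, with 7 of 8 listed genes tested. In the NOTCH1 knockdown 6 were positive, with a median of 0.32, and 4 had both libraries above both controls, beside 51.1% of all genes with a positive sign and 18.6% with both libraries above. None passed (limma, smallest adjusted p = 0.466, for GATA3). With the replicate number as a block in the fit, GATA3 passed in the NOTCH1 knockdown (limma, adjusted p = 0.0119). It also passed between the knockdowns in that fit (limma, adjusted p = 0.0225). Over all genes 138 passed in the NOTCH1 knockdown and 15 between the knockdowns with the block. CDX2, a TEAD4 target in mouse embryos, measured 976 and 832 in the NOTCH1 knockdown, 682 and 624 in the RBPJ knockdown, and 654.5 and 744 in the control. GATA3, another trophectoderm factor, measured 1018 and 856 in the NOTCH1 knockdown, 737 and 391 in the RBPJ knockdown, and 577.5 and 514.5 in the control. Both genes were higher in the NOTCH1 knockdown than in the other 4 libraries, with log2 differences from the RBPJ knockdown of 0.47 for CDX2 and 0.80 for GATA3. The GATA3 difference was 0.34 without replicate 2 of the RBPJ knockdown and 1.26 without replicate 1. The pluripotency gene POU5F1 was likewise higher in the NOTCH1 knockdown than in the other 4 libraries. It measured 12940 and 12820 there, 11110 and 12180 in the RBPJ knockdown, and 10910 and 11590 in the control. Its log2 fold change against the control was 0.20, and that of NANOG, with overlapping libraries, was -0.08. All 7 genes of the RBPJ knockdown overlapped the control, with a median of -0.02, and POU5F1 had a log2 fold change of 0.05.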

How the data were processed

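Polyadenylated RNA of 6 bovine libraries was sequenced, with GFP and RFP transcripts spiked in before extraction, per the labels' protocols. The submitters' processing notes name the tools Salmon 0.14.1 and DESeq2, with ARS-UCD1.2 as genome build, without saying what each did. The deposited table holds 1 signal value per gene and library, judged from the values to be read counts that the authors divided by a scaling factor. Of values below 8, 85.5% to 87.3% lay within 0.1 of a multiple of 1 step, too few to recover whole reads, so depths are approximate and no count-based test was run. Spike-in rows were not used here.

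Of 17922 rows, 2551 without a name (6.20% to 7.22% of a library's total) and 57 repeats of a symbol (the row with the higher mean was kept) were left out. Genes with a mean of at least 10, 12070 in all, were tested as log2(value + 1) with limma 3.58.1 in R 4.3.3, with group means over all 6 libraries, 3 residual degrees of freedom and a variance trend. Fold changes on this scale understate those of low genes. Intervals are at the 95% level. The fit was tested on simulated data. Figures were drawn with matplotlib 3.10.9.

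The members, gene lists and rules were chosen with earlier results of these data known. The rule for named genes took the TEAD genes, YAP1, WWTR1, and members past the test or with non-overlapping libraries and an absolute log2 fold change of at least 0.5; of each further list it took the 2 smallest p values in a comparison, of which 1 is not reported here. The labels do not say that the 2 libraries of a group were independent collections, so each p-value reflects the spread between these libraries alone, and that spread may be technical. Replicate libraries shared no identical value among the genes tested. Symbols are those of the table, and all 32 matched RefSeq genes of another assembly, so no coordinates are given. Listed genes without a row, such as SOX2, were not analysed here. How reads were split between paralogs is not given in the sources used here.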

Additional observations from a re-analysis of the deposited data

Results flagged for a closer look

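VGLL4 was singled out because its libraries lay on opposite sides of the control in the 2 knockdowns. Both NOTCH1 knockdown libraries (522.5 and 469) lay below both controls (629 and 631), and both RBPJ knockdown libraries (691 and 672) lay above them. Of all genes, 17.2% lay below both controls in the NOTCH1 knockdown, and 15.3% lay above both in the RBPJ knockdown. VGLL4 was the only member with both. The share of all genes with both was not counted, so this order is not read as unusual. The direct log2 difference between the NOTCH1 and RBPJ knockdowns was -0.46 and its standard error 0.13, and it did not pass (limma, adjusted p = 0.999). Over the 15 alternatives its value stayed between -0.54 and -0.38, with adjusted p values from 0.149 to 1.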

How the results depend on the processing

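No member passed in any of the 3 comparisons under any of the 15 alternatives: a filter at a mean of 100 (28 members left) or none, pseudocounts of 0.1 and 10, median-of-ratios scaling, quantile normalization, the compared groups alone, no variance trend, a replicate block, and each of the 6 libraries left out. The smallest adjusted p of a member was 0.139 in the NOTCH1 knockdown and 0.149 between the knockdowns, both with the replicate block, and 0.348 in the RBPJ knockdown, without replicate 2 of the control. Over all genes, the counts of 0 in the NOTCH1 knockdown, 1 in the RBPJ knockdown and 1 between the knockdowns became 138, 12 and 15 with the replicate block; without the variance trend both counts of 1 became 0. With the block, 8 members had an unadjusted p below 0.05 in the NOTCH1 knockdown, beside 12.2% of all genes. The causes were not tested. Deviations of same-numbered libraries correlated at 0.17 to 0.21 over all genes, but with 2 numbers per group and no label this does not establish pairs. Up to 10 members of the 32 took the other sign when 1 library was left out, and up to 2 under the other alternatives. Quantile normalization moved the NOTCH1 knockdown count with both libraries above both controls to 8 members, against 11 as deposited. The lowest members, VGLL1 and ANKRD1, with means of 10.3 and 28.3, had the largest standard errors (0.56 and 0.54). DESeq2 and TMM, listed for counts, were not run.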
